A study of Mus musculus with 29 samples.

Results

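Simple epithelial keratins are the intermediate filament proteins of single-layered epithelia. The 6 genes described here, Krt7, Krt8, Krt18, Krt19, Krt20 and Krt23, were taken from the deposited count table by symbol, and all 6 were found among its 24421 gene symbols. They were followed through RNA-seq libraries of 29 mice, 1 library per mouse, from the peritoneal dissemination model of YTN16, a mouse gastric cancer (GC) cell line. Female C57BL/6J mice, 5 to 6 weeks old at the start, received YTN16 cells IP, and RNA came from peritoneum that was stripped off with or without tumor nodules. At 3wk (day 21) there were 5 untreated mice, which were given PBS, and 5 mice given both anti-PD1 (10 mg/kg) and anti-CTLA4 (5 mg/kg), called dual ICI (2 immune checkpoint inhibitors). At 5wk (day 35) there were 5 untreated, 5 anti-PD1, 4 anti-CTLA4 and 5 dual ICI mice, and all 29 mice of the 7 groups had been injected with the same cell line. The study left out a further anti-CTLA4 mouse because it died before autopsy. The sample labels give treatment and day but not outcome. The outcome of the dual ICI mice at 5wk came from the mouse numbers in the study's text, with the number in each label taken as the mouse number. Mice 1 and 5 were dual ICI-uncured, and mice 2, 3 and 4 were dual ICI-cured, so the comparison of all 5 dual ICI mice with untreated mice is given as well, since it does not need that split. The study also counted 1 cured mouse among the anti-PD1 mice without saying which, and all 5 were kept as 1 group.

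Keratin filaments are built from pairs of an acidic type I and a basic type II chain, so neither type forms a filament alone. Krt8 (type II) and Krt18 (type I) are the first pair of simple epithelia, and Krt19 (type I) and Krt7 (type II) are added in ducts and glands, while Krt20 (type I) marks differentiated gastric and intestinal epithelium. Mesothelium, the flat cell layer that lines the peritoneum, also makes Krt7, Krt8, Krt18 and Krt19, whereas fibroblasts, muscle and leukocytes are known for vimentin or desmin filaments instead.

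In the annotation of GRCm38, the type II genes Krt7 (chr15:101411043-101430313, plus strand) and Krt8 (chr15:101996698-102004482, minus strand) were on chromosome 15. Krt18 (chr15:102028180-102032027, plus strand) was the only type I gene of the 6 that was not on chromosome 11, and its gene body was 23697 bases from that of Krt8. Krt19 (chr11:100140810-100148665), Krt20 (chr11:99428403-99438150) and Krt23 (chr11:99477974-99493137), all on the minus strand, were on chromosome 11. Exons of Krt7 overlapped the antisense gene Gm671, and exons of Krt8 overlapped the lincRNA Gm36026 on the opposite strand. Neither overlapping gene had a row in the count table and whether counting used strand is not given in the sources used here, so reads from these transcripts cannot be told apart from reads of Krt7 and Krt8.

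Promoter sequences (RefSeq, GRCm38.p6) are shown for 3 of the genes, because the 6 keratins moved together across mice and these windows let their start regions be compared. Each window runs from 210 to 11 bases before the RefSeq start, is written 5′ to 3′ along the gene's strand, and has matches to the motifs CACCC and TATAAA in capitals. The windows are chr15:102028006-102028205 (plus strand) for Krt18, chr11:99438164-99438363 (minus strand) for Krt20 and chr11:99493131-99493330 (minus strand) for Krt23.
Krt18: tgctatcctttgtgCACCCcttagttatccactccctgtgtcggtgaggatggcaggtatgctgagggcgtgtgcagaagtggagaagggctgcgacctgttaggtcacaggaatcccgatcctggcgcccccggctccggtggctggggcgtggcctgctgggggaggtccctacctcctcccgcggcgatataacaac
Krt20: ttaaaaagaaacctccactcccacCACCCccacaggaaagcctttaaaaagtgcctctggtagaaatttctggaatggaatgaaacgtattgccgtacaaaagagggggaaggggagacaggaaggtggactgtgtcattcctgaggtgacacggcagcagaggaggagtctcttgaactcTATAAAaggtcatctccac
Krt23: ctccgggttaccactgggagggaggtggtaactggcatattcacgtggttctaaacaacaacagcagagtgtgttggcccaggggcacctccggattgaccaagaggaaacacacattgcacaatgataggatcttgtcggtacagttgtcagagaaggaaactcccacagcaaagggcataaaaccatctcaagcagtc
The windows of Krt7 and Krt8 lay mostly in annotated exons and are described by counts only, and Krt19 is named only. TATAAA was found in 1 of the 5 windows searched, that of Krt20, from 29 to 24 bases before the start, and in 10.2% of the same windows of 32851 promoters. GGGCGG was found in Krt7 alone of the 5, with 4 matches, and in 29.9% of all promoters. CACCC was found in Krt7, Krt8, Krt18 and Krt20, against 45.4% of all promoters. TGANTCA (5.52% of all promoters) and TTCNNNGAA (5.51%) were found in none of the 5, which says only that these letters are not in these windows. Both strands were searched. The GC content was 70.5% for Krt7, 60.5% for Krt8, 62.5% for Krt18, 48.0% for Krt20 and 50.5% for Krt23, with a median of 52.5% over all promoters.

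Library totals ranged from 25989217 to 31219650 counts, and all 6 keratins passed the filter on low counts over the 7 groups together with 16700 genes in all. Levels are in CPM, each count divided by the TMM-scaled size of its library and put on 1 common scale. Markers of other tissues differed between mice: summed over 10 skeletal muscle genes, the level was between 249430 and 280750 CPM in the 3 cured mice and between 41988 and 226930 CPM in the 5 untreated mice at 5wk. Summed over 15 epithelial genes that are no keratins (Epcam, Cdh1, claudins and others), it was between 6.68 and 22.5 CPM in the cured mice and between 469 and 1508 CPM in untreated mice at 5wk. In these bulk samples, fewer epithelial cells and less keratin RNA per cell cannot be told apart. Anti-PD1 mouse 5 stood apart from its group, with 15.8 CPM over the epithelial list and 253890 CPM over the muscle list, and it is named beside the values that rest on it. Libraries of 3wk and 5wk mice carried labels from different number series. What these series stand for is not stated in the labels, and time cannot be told apart from it.

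Krt8, the type II chain found in every simple epithelium, had a mean of 742 CPM over the 29 libraries, which was rank 107 of all genes by CPM. In untreated mice 1 to 5 it was at 603, 261, 447, 821 and 431 CPM at 3wk and at 1025, 380, 980, 1316 and 777 CPM at 5wk. In dual ICI mice 1 to 5 at 3wk it was at 337, 326, 633, 976 and 742 CPM. These 3 groups overlapped, and mouse 2 was the lowest in each. Anti-PD1 mice 1 to 4 had 1054, 1128, 1324 and 1014 CPM and mouse 5 had 12.7 CPM, while the 4 anti-CTLA4 mice had 1312, 804, 1035 and 1108 CPM. In the 2 uncured mice Krt8 was at 1158 and 1488 CPM. In cured mice 2, 3 and 4 it was at 20.3, 5.46 and 1.99 CPM, so the cured mice and anti-PD1 mouse 5 lay below the other 25 mice.

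Krt7, the other type II keratin and a marker of ductal and mesothelial cells, had a mean of 106 CPM over the 29 libraries (rank 1770). Its level in untreated mice at 5wk was 143, 59.5, 148, 183 and 124 CPM. In the 2 uncured mice it was at 159 and 242 CPM, and in cured mice 2, 3 and 4 at 17.5, 7.65 and 3.24 CPM. The uncured mice overlapped with untreated mice, and the cured mice were below all of them. At 3wk Krt7 ranged from 42.8 to 118 CPM in untreated mice and from 48.7 to 137 CPM in dual ICI mice. Anti-CTLA4 mice had 95.8 to 182 CPM, and anti-PD1 mice 1 to 4 had 143 to 196 CPM against 10.9 CPM in mouse 5.

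Krt18, the type I partner of Krt8, had a mean of 232 CPM over the 29 libraries (rank 588). Untreated mice at 5wk had 312, 144, 353, 517 and 298 CPM. The uncured mice had 368 and 435 CPM, and cured mice 2, 3 and 4 had 11.9, 5.21 and 2.13 CPM. For Krt18 both uncured mice lay within the range of untreated mice and the cured mice lay below it, whereas for Krt7 and Krt8 uncured mouse 5 (242 and 1488 CPM) was above the highest untreated mouse at 5wk (183 and 1316 CPM). Krt18 ranged from 99.9 to 245 CPM in untreated and from 92.2 to 305 CPM in dual ICI mice at 3wk, from 193 to 400 CPM in anti-CTLA4 mice and from 283 to 385 CPM in anti-PD1 mice 1 to 4, with 7.43 CPM in mouse 5.

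Krt19, a short type I keratin without the usual tail domain, had a mean of 597 CPM over the 29 libraries (rank 157). In untreated mice 1 to 5 it was at 479, 232, 383, 677 and 324 CPM at 3wk and at 862, 344, 802, 1278 and 786 CPM at 5wk. Dual ICI mice 1 to 5 at 3wk had 256, 254, 379, 532 and 501 CPM. As with Krt8, untreated mouse 2 was the lowest at both times and the groups overlapped. The 4 anti-CTLA4 mice had 1085, 506, 808 and 936 CPM, and anti-PD1 mice 1 to 4 had 916, 895, 1051 and 830 CPM against 28.8 CPM in mouse 5. The uncured mice had 890 and 1184 CPM. Cured mice 2, 3 and 4 had 50.01, 22.2 and 9.49 CPM, and in each of them Krt19 was the highest of the 6 keratins per kb of transcript.

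Krt20, the keratin of differentiated gut epithelium, was at 85.1, 21.9, 75.1, 73.7 and 61.3 CPM in untreated mice at 5wk. The uncured mice had 68.4 and 107 CPM. In cured mice 2, 3 and 4 it was at 1.08, 0.390 and 0.0969 CPM, which were 21, 8 and 2 counts, and in anti-PD1 mouse 5 at 1.29 CPM (25 counts). At these counts the values of the cured mice have little precision, but all were far below the 21.9 CPM of the lowest untreated mouse at 5wk. At 3wk Krt20 ranged from 11.6 to 49.2 CPM in untreated mice and from 13.7 to 73.7 CPM in dual ICI mice. Krt23, a type I keratin known from pancreatic and colonic cancer cells, had a mean of 9.12 CPM over the 29 libraries and was at 11.0, 2.60, 19.5, 13.6 and 10.7 CPM in untreated mice at 5wk. It was at 17.2 and 19.9 CPM in the uncured mice and at 0.563, 0.536 and 0.339 CPM in cured mice 2, 3 and 4 (11, 11 and 7 counts). In anti-PD1 mouse 5 it was at 0.155 CPM (3 counts), the lowest Krt23 value of the 29 libraries.

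**Figure D1:**
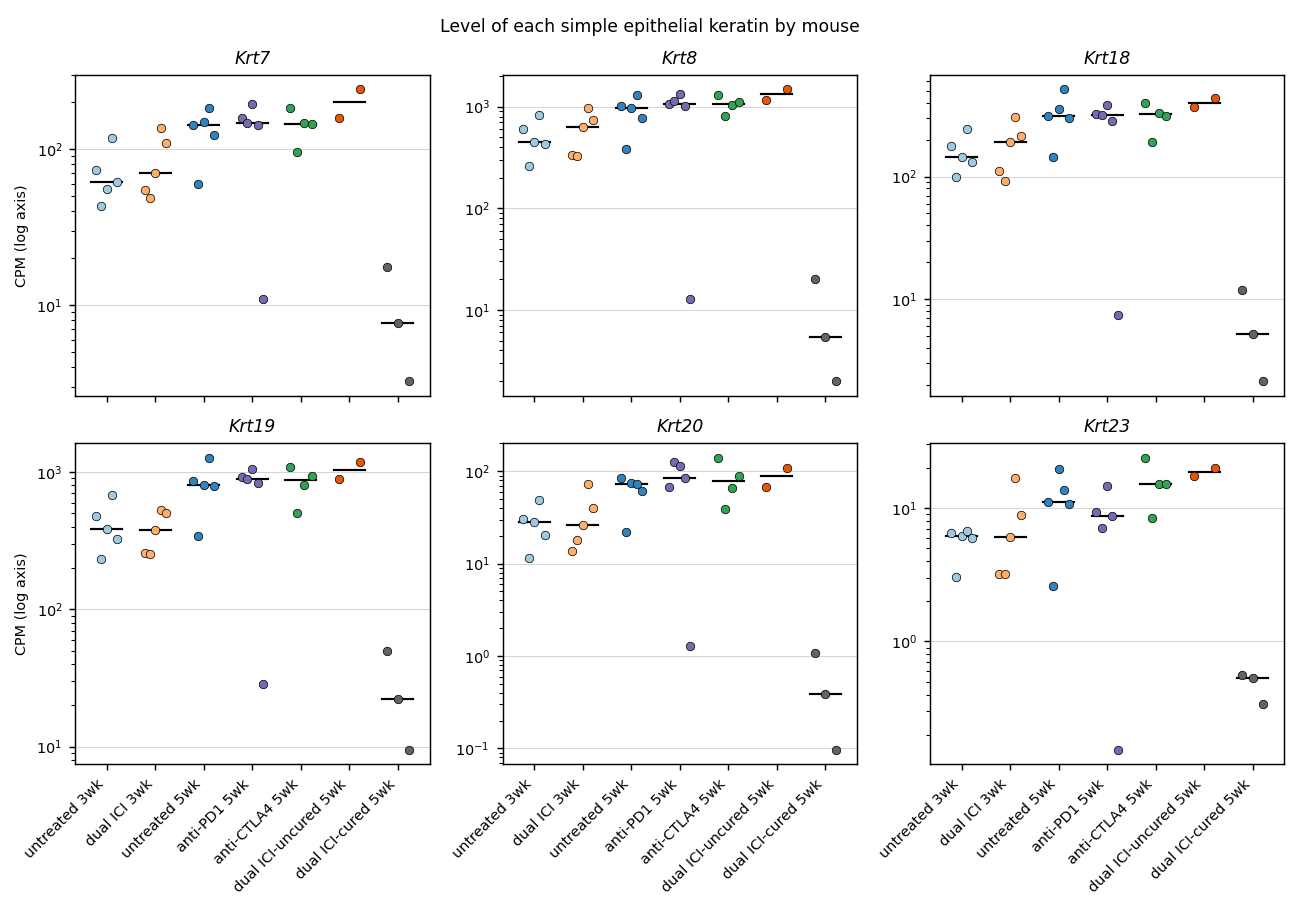
Level of each keratin in every mouse, in CPM on a log axis, by group (points: mice; bars: group medians). The 3 cured mice and anti-PD1 mouse 5 sit below all other points for each keratin, for Krt8 between 1.99 and 20.3 CPM.

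By group mean, the order of levels was the same at its ends for all 6 keratins: dual ICI-uncured mice were the highest and dual ICI-cured mice the lowest. For Krt8 the means were 1323 ± 233 CPM (SD, n = 2) in uncured, 1065 ± 210 (n = 4) in anti-CTLA4, 907 ± 514 (n = 5) in anti-PD1 and 895 ± 347 (n = 5) in untreated mice at 5wk. They were 603 ± 277 (n = 5) in dual ICI and 513 ± 211 (n = 5) in untreated mice at 3wk and 9.26 ± 9.74 CPM (n = 3) in cured mice. Every pair of neighbours in the order overlapped for each keratin, apart from the last step down to the cured mice. For Krt7 and Krt19 the overlap of anti-PD1 mice with the next group, dual ICI mice (up to 137 CPM of Krt7) or untreated mice (up to 677 CPM of Krt19) at 3wk, came from anti-PD1 mouse 5 alone. Without that mouse the anti-PD1 mean of Krt8 was 1130 ± 138 CPM (n = 4), above that of anti-CTLA4 mice, and for Krt20 the anti-PD1 mean (98.0 ± 26.5 CPM) passed that of uncured mice (87.9 CPM). In the order recomputed without it, neighbours again overlapped at every step but the last. Within a group, untreated mice at 5wk differed 3.46-fold for Krt8 and 7.50-fold for Krt23 between the lowest and the highest mouse.

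Between genes, levels were compared per kb of the longest coding transcript. In untreated mice at 5wk Krt19 was at 517 ± 210 and Krt8 at 457 ± 177 CPM per kb (SD, n = 5), and Krt18 was at 226 ± 92.8 CPM per kb. Krt20 (32.9 ± 12.8 CPM per kb) and Krt7 (32.1 ± 11.1 CPM per kb) were close to each other, and Krt23 (7.34 ± 3.90 CPM per kb) was the lowest. The annotated Krt7 transcript is 4094 bases with a coding length of 1371 bases, and per kb of coding length Krt7 (95.9) was above Krt20 (49.1 CPM per coding kb).

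At 3wk, dual ICI and untreated mice were compared to see whether the keratins differed early in treatment. None of the 6 was called by edgeR's quasi-likelihood test at an adjusted p (Benjamini-Hochberg over all genes) under 0.05, against 0.574% of all genes. None reached an unadjusted p under 0.05, which 10.7% of all genes did, and DESeq2 also called 0. The log2 fold changes were 0.27 for Krt7, 0.25 for Krt8, 0.21 for Krt18, -0.11 for Krt19, 0.31 for Krt20 and 0.44 for Krt23, with SE between 0.30 and 0.47 and edgeR adjusted p between 0.817 and 0.960. The groups overlapped for every keratin, whereas they did not overlap for 3.18% of all genes. Of the gene lists, squamous keratins had 0 of 8 tested called (median log2 fold change -1.07, all genes 0.02). The calls among all the lists were Gkn3, a gastrokine (1 of 5 gastric surface and neck genes tested, log2 fold change -2.29), and Cd8a of cytotoxic T cells (1 of 5 leukocyte genes, 2.31).

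Untreated mice at 5wk were compared with untreated mice at 3wk for the course without treatment. All 6 keratins had a higher mean at 5wk, but none was called by edgeR, against 10.8% of all genes. The log2 fold changes were 0.91 ± 0.31 (SE) for Krt7, 0.81 ± 0.35 for Krt8, 1.02 ± 0.31 for Krt18, 0.96 ± 0.35 for Krt19, 1.18 ± 0.39 for Krt20 and 1.02 ± 0.41 for Krt23. The edgeR adjusted p lay between 0.0573 (Krt18) and 0.144 (Krt8). The groups overlapped for each keratin and were apart for 11.2% of all genes. All 6 had an unadjusted p under 0.05, as had 30.1% of all genes, and DESeq2 called 4, namely Krt7, Krt18, Krt19 and Krt20. Mouse 2 was the lowest of the untreated mice at 5wk for every keratin, and without it edgeR called all 6. Without untreated mouse 4 at 3wk edgeR called 3. How many of all genes DESeq2 and these refits called is not given here, so their counts have no share to be set against. The summed epithelial list moved as well, from 355 to 1077 CPM at 3wk to 469 to 1508 CPM at 5wk. With the mean log2 CPM of its genes as a covariate, 0 keratins were called and the log2 fold changes lay between -0.11 and 0.39. Squamous keratins, those of stratified epithelium, rose for 4 of 9 tested: Krt5 by 2.68, Krt15 by 3.00, Krt17 by 2.41 and Krt4 by 2.16 on the log2 scale. Of 14 filament partners only Tchp, a keratin-binding centrosome protein, was called (log2 fold change 0.52), and of 15 epithelial transcription factors tested only Cdx2, the intestinal homeobox factor (1.10). Of 14 epithelial genes tested, the tight junction gene Cldn3 (1.02) and the protease inhibitor gene Spint1 (1.12) were called higher, as were 2 of 6 gastric genes, the trefoil factor Tff2 (3.32) and the mucin Muc1 (1.203), and 1 of 2 liver markers, Apoa1 (2.35). Genes of stroma and other cells were called lower. They included 5 of 7 fibroblast genes (Col1a1, Col3a1, Lum, Pdgfra and Dpt, list median -0.88), and 1 each of the mesothelium (Gpm6a, -1.36), adipocyte (Plin1, -1.33) and leukocyte (Ptprc, -0.82) lists. Their part in the keratin values was not tested. The 10.8% of all genes called covers both directions, and the shares called higher or lower are not given here.

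Each monotherapy was compared with untreated mice at 5wk, and no keratin was called for either, where 0% of all genes were called in both comparisons. With anti-PD1 the log2 fold changes ranged from -0.52 (Krt23) to 0.31 (Krt20), with SE between 0.57 and 0.78. Without anti-PD1 mouse 5 they were 0.29 for Krt7, 0.33 for Krt8, 0.17 for Krt19, 0.62 for Krt20, 0.00 for Krt18 and -0.22 for Krt23, and again 0 were called. With anti-CTLA4 they ranged from -0.08 (Krt18) to 0.43 (Krt23), with SE between 0.29 and 0.45. No keratin had an unadjusted p under 0.05 in either comparison, against 1.31% of all genes for anti-PD1 and 0.811% for anti-CTLA4, and DESeq2 called 0. These comparisons and the 3 that follow share the 5 untreated mice.

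All 5 dual ICI mice at 5wk were then compared with untreated mice without regard to outcome. The log2 fold changes were between -0.58 (Krt23) and -0.997 (Krt18) with SE between 0.98 and 1.41, and 0 were called by edgeR (adjusted p 0.715 to 0.799), where 0% of all genes were called. None had an unadjusted p under 0.05, against 6.87% of all genes, and DESeq2 called 0. In a single fit of all 29 libraries, which does use the split by outcome and averages the log2 levels of uncured and cured mice, all 6 were called, where 16.1% of all genes were. The log2 fold changes there were themselves lower, between -3.97 (Krt20) and -2.03 (Krt7).

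In dual ICI-uncured mice the 6 keratins had higher means than in untreated mice at 5wk, and none of the differences was called. The log2 fold changes were 0.61 ± 0.37 (SE) for Krt7, 0.56 ± 0.42 for Krt8, 0.30 ± 0.40 for Krt18, 0.35 ± 0.43 for Krt19, 0.47 ± 0.43 for Krt20 and 0.69 ± 0.54 for Krt23. None was called by edgeR (adjusted p 0.734 to 0.806), where 0% of all genes were called, none had an unadjusted p under 0.05 (4.87% of all genes had) and DESeq2 called 0. The groups overlapped for every keratin and were apart for 17.5% of all genes.

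In dual ICI-cured mice all 6 keratins fell against untreated mice at 5wk, and the groups did not overlap for any of them. By edgeR, 26.7% of all genes were called lower, and the groups did not overlap with the cured mice lower for 26.9%. The steepest was Krt20, 120-fold lower (log2 fold change -6.91 ± 0.69 SE, edgeR adjusted p = 0.000164). Krt8 was 95.5-fold lower (-6.58 ± 0.87, edgeR adjusted p = 0.000447) and its partner Krt18 was 49.8-fold lower (-5.64 ± 0.66, edgeR adjusted p = 0.000259). Krt19 was 29.4-fold lower (-4.88 ± 0.65, edgeR adjusted p = 0.000490) and Krt23 was 23.4-fold lower (-4.55 ± 0.65, edgeR adjusted p = 0.000671). Krt7 was the least reduced, 13.7-fold lower (-3.78 ± 0.57, edgeR adjusted p = 0.000875). The cured group was formed by the loss of disseminated tumor, so these falls describe that split and are no independent result. The differences between keratins in the size of the fall were not tested.

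The uncured and the cured dual ICI mice were compared directly, and all 6 keratins were higher in the uncured mice with no overlap, where 36.9% of all genes were called higher and 43.7% did not overlap in that direction. The log2 fold changes were 4.39 ± 0.50 (SE) for Krt7, 7.15 ± 0.73 for Krt8, 5.95 ± 0.49 for Krt18, 5.23 ± 0.55 for Krt19, 7.39 ± 0.41 for Krt20 and 5.24 ± 0.24 for Krt23. The edgeR adjusted p lay between 7.23e-07 (Krt23) and 6.71e-05 (Krt7). The summed epithelial and muscle lists moved with both comparisons, and their part in the fall of the keratins was not tested.

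**Figure D2:**
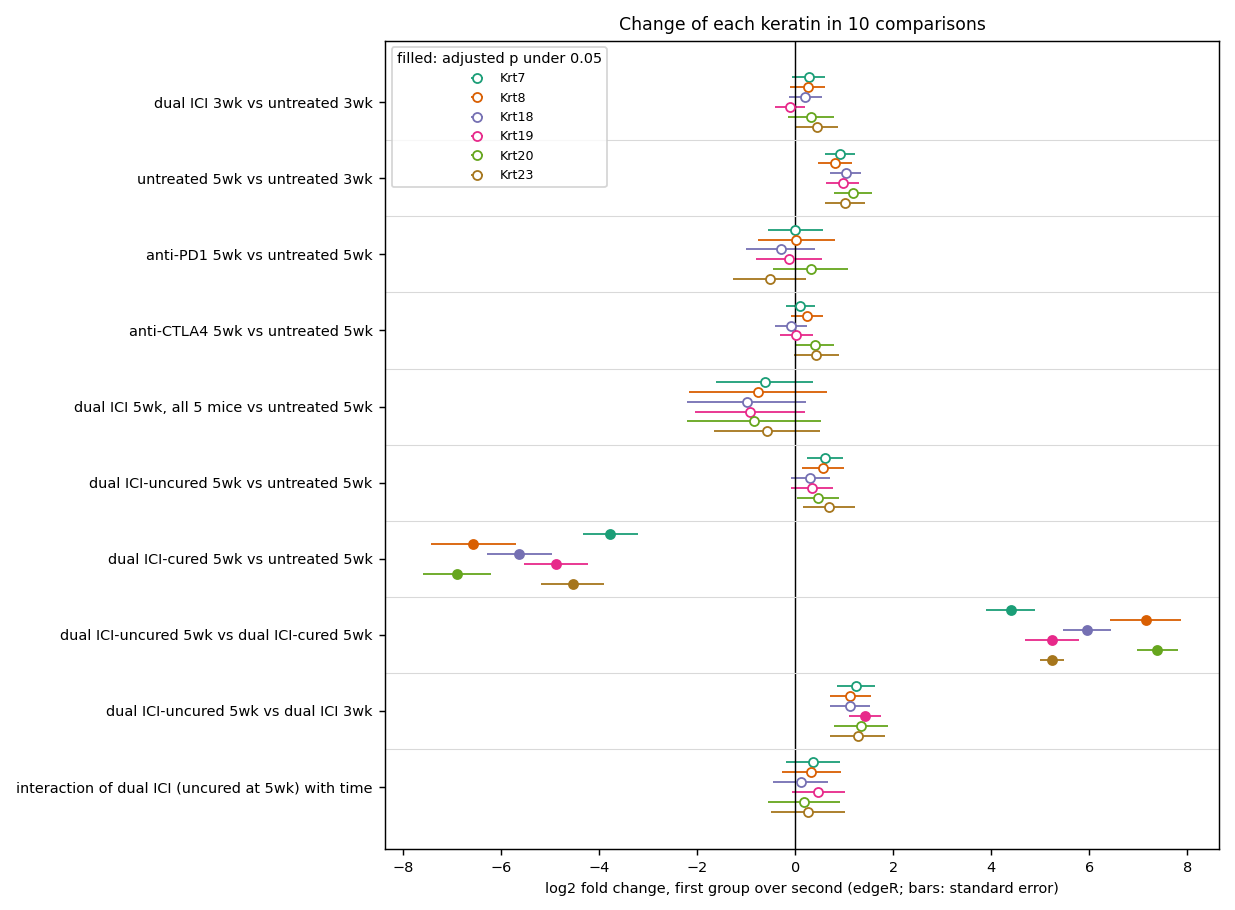
Log2 fold change of each keratin (first group over second; bars: standard error) in 10 comparisons, with filled points for an edgeR adjusted p under 0.05. Filled points for all 6 keratins appear in the 2 comparisons with cured mice, and 1 more, Krt19, in uncured mice at 5wk against dual ICI mice at 3wk.

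Uncured mice at 5wk were set against dual ICI mice at 3wk for the course under treatment. The uncured mice were picked because tumor remained, while the mice at 3wk were not picked by outcome. By the study's schedule, dual ICI mice at 5wk had also received later doses. Time therefore cannot be told apart from this selection or from dosing, either here or in the interaction below. Krt19 was the only keratin called by edgeR, with a log2 fold change of 1.42 ± 0.33 (SE) and an adjusted p of 0.0463, where 3.05% of all genes were called higher. The other log2 fold changes were 1.24 ± 0.39 for Krt7, 1.12 ± 0.42 for Krt8, 1.12 ± 0.41 for Krt18, 1.35 ± 0.55 for Krt20 and 1.27 ± 0.57 for Krt23. Both uncured mice lay above all 5 dual ICI mice at 3wk for 5 keratins, all but Krt20, as they did for 19.1% of all genes. The call of Krt19 was lost without dual ICI mouse 1, 2, 3 or 5 at 3wk (edgeR adjusted p 0.0514 to 0.116). Leaving out uncured mouse 1 or 5 left 1 mouse in that group, so no call is given for these 2 fits. The log2 fold change of Krt19 in them was 1.62 or 1.21. Without dual ICI mouse 4 at 3wk, the highest of its group, all 6 keratins were called, but the share of all genes called there is not given here. The call of Krt19 was also lost with the epithelial list as a covariate (log2 fold change 0.47, edgeR adjusted p = 0.230). Among squamous keratins, Krt5 (4.89), Krt15 (3.80), Krt17 (4.09), Krt6a (4.13) and Krt4 (3.37 on the log2 scale) rose, 5 of 9 tested. Also called higher were 2 of 14 filament partners (Evpl, 1.39, and Fam83h, 1.34), 2 of 15 epithelial genes (Cldn3, 1.25, and Spint1, 1.497), 3 of 15 transcription factors (Cdx2, 1.67, Gata4, 1.27, and Sox9, 1.61) and 2 of 6 gastric genes (Tff2, 5.32, and Muc1, 2.16). The liver marker Apoa1 (1.83) and the pancreatic marker Cela1 (1.86) were called higher too, while the mesothelial genes Bnc1 (-1.58) and Gpm6a (-1.98), 2 of 8, were called lower, as were 2.26% of all genes. The interaction of dual ICI (uncured mice at 5wk) with time, which tests whether the difference from untreated mice changed between 3wk and 5wk, called 0 keratins by edgeR, where 0% of all genes were called. Its log2 values were between 0.11 and 0.47 (edgeR adjusted p 0.815 to 0.966), none had an unadjusted p under 0.05 (6.35% of all genes had), and DESeq2 called 0.

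Together the 6 keratins took between 0.0609% and 0.425% of the counts of a library in the 25 mice outside the cured group and anti-PD1 mouse 5, and between 90.3% and 96.5% of the counts of all 52 keratin rows. In cured mice 2, 3 and 4 they took 0.00707% (95% Wilson interval 0.00677% to 0.00739%), 0.00303% (0.00283% to 0.00324%) and 0.00125% (0.00113% to 0.00139%) of the counts, and in anti-PD1 mouse 5 they took 0.00424% (0.00400% to 0.00448%). These intervals cover counting error only. The share of all keratin counts was 75.3%, 38.2% and 39.5% in the cured mice and 72.6% in anti-PD1 mouse 5. Of the 46 other keratin rows, the highest by mean CPM over the 29 libraries were Krt14 (40.9), Krt5 (22.5), Krt4 (15.6), Krt80 (13.4) and Krt15 (8.26). Krt80, an epithelial keratin of low and broad expression, ranged from 7.28 to 28.5 CPM over the 29 libraries and was at 12.1 CPM on average in the cured mice.

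The make-up of the keratin pool also differed between mice. Per kb of transcript, and over the same 25 mice, Krt8 made up 33.9% to 44.9% of the summed level of the 6 keratins, Krt19 29.9% to 42.6%, Krt18 14.7% to 18.9%, Krt20 1.64% to 4.42%, Krt7 2.25% to 3.07% and Krt23 0.307% to 0.941%. In cured mice 2, 3 and 4 the share of Krt19 was 57.1%, 61.5% and 62.9%, above all 25. The share of Krt8 there was 18.7%, 12.2% and 10.6%, below all 25. Krt7 had 7.67%, 8.15% and 8.27% in the cured mice, whereas the share of Krt18 (14.9% to 15.8%) lay within the range of the 25. Anti-PD1 mouse 5 had 54.7% Krt19, 19.5% Krt8 and 7.98% Krt7, on the side of the cured mice. The ratio of type II to type I level was between 0.573 and 0.902 in the 25 mice, 0.358, 0.255 and 0.232 in the cured mice and 0.378 in anti-PD1 mouse 5. The size of the Krt7 share, and of any ratio that includes Krt7, depends on the length used for its long transcript. In untreated mice at 5wk Krt7 was at 32.1 CPM per kb but at 95.9 CPM per coding kb.

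**Figure D3:**
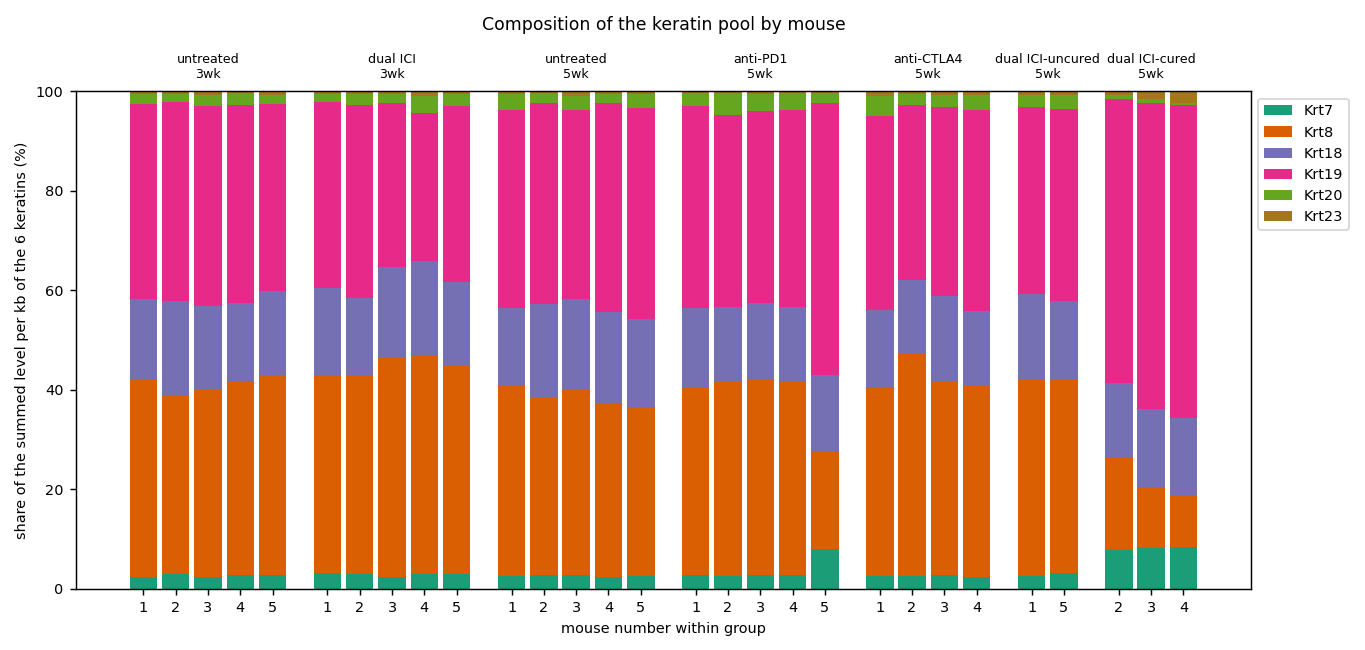
Share of each keratin in the summed level per kb of the 6 keratins (%), stacked by mouse and ordered by group. Krt19 takes 54.7% to 62.9% in the 3 cured mice and anti-PD1 mouse 5 and 29.9% to 42.6% in the other 25 mice.

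Ratios between single keratins, on levels per kb, showed the same 4 libraries apart. Krt19 over Krt8 was between 0.678 and 1.26 in the 25 mice, 3.06, 5.06 and 5.94 in cured mice 2, 3 and 4 and 2.81 in anti-PD1 mouse 5. Krt8 over its partner Krt18 was between 1.87 and 3.06 in the 25 mice, 1.25, 0.768 and 0.684 in the cured mice and 1.25 in anti-PD1 mouse 5. Krt7 over Krt8 was between 0.0530 and 0.0784 in the 25 mice, 0.411, 0.670 and 0.782 in the cured mice and 0.410 in anti-PD1 mouse 5. In each ratio cured mouse 4, with the lowest keratin counts, was the farthest from the 25. Among the 25, Krt19 over Krt8 was lower in dual ICI mice at 3wk (0.944, 0.967, 0.744, 0.678 and 0.840) than in most untreated mice at 3wk (0.986, 1.10, 1.06, 1.02 and 0.935), and these 2 groups overlapped by 1 untreated mouse. Ratios between groups were not tested.

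Set against the 15 other epithelial genes, the keratins did not fall evenly in the cured mice. The log2 ratio of Krt19 to the summed epithelial list was between -1.36 and -0.01 in the 25 mice and 1.15, 0.92 and 0.51 in cured mice 2, 3 and 4. That of Krt7 was between -3.74 and -2.81 in the 25 and -0.37, -0.62 and -1.04 in the cured mice. Both keratins were therefore higher relative to the epithelial list in the cured mice than in any of the 25, as was Krt23 (-5.32, -4.45 and -4.30 against -7.53 to -6.13). The log2 ratio of Krt18 was -0.92, -1.17 and -1.65 in the cured mice against -2.36 to -1.31 in the 25, so that cured mouse 4 lay within the range. That of Krt8 was -0.15, -1.11 and -1.75 against -0.96 to 0.04, with cured mice 3 and 4 below the range, and that of Krt20 was -4.39, -4.91 and -6.11 against -5.07 to -3.39, with cured mouse 4 below it. Against Cdh1 and Epcam alone the places of Krt8 and Krt18 changed. For Krt8 the log2 ratios were 1.12, 0.40 and -0.29 in cured mice 2, 3 and 4 against -0.0999 to 1.05 in the 25, so that mouse 2 was above, mouse 3 within and mouse 4 below the range, and for Krt18 that of cured mouse 4 (-0.18) was above the range (-1.498 to -0.30). In anti-PD1 mouse 5 the log2 ratios were 0.86 for Krt19, -0.54 for Krt7, -1.09 for Krt18, -0.31 for Krt8, -3.61 for Krt20 and -6.67 for Krt23. The epithelial list itself had 440, 241 and 138 counts in the cured mice and 306 in anti-PD1 mouse 5, which limits the precision of these ratios.

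**Figure D4:**
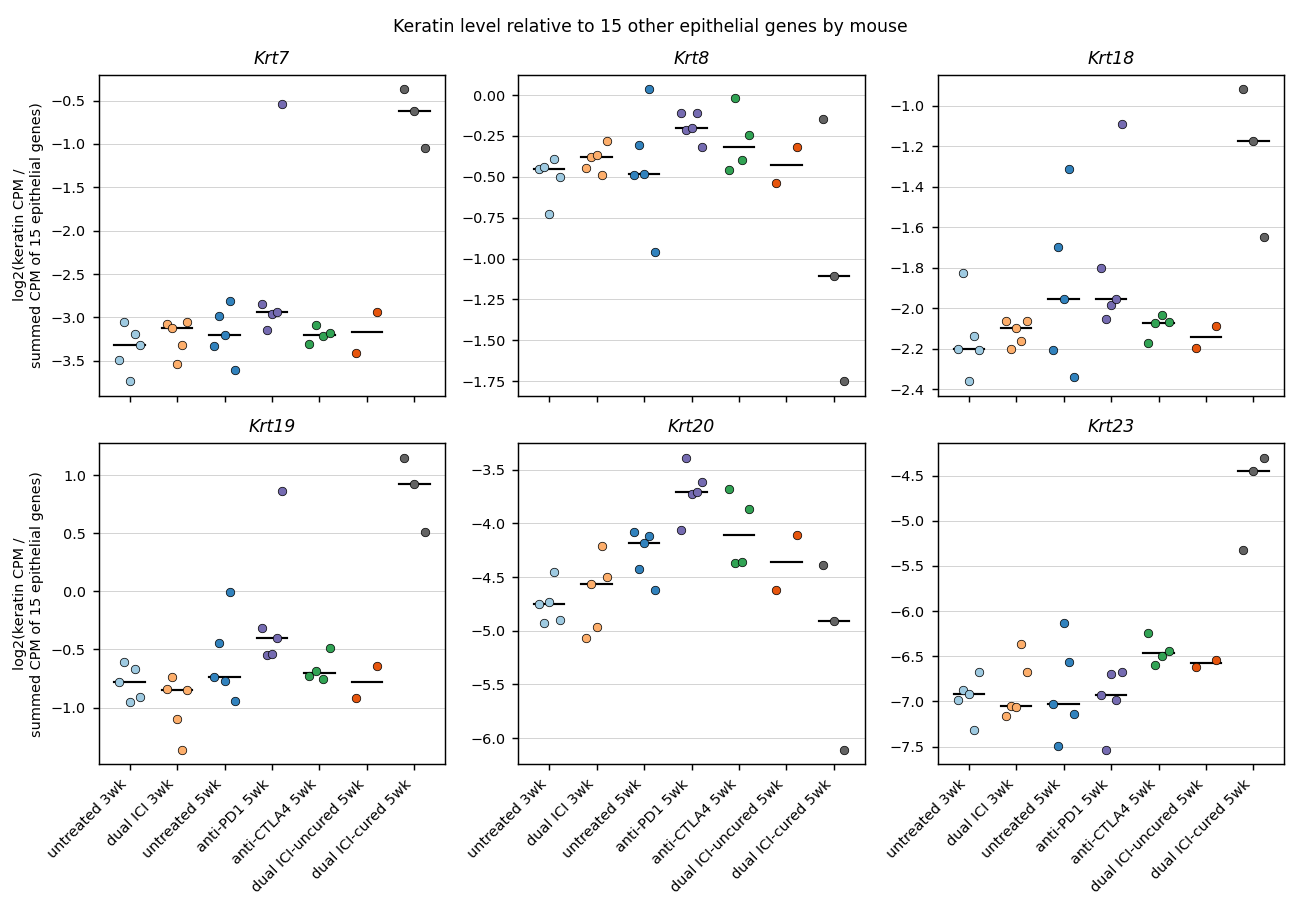
Log2 of the CPM of each keratin over the summed CPM of 15 other epithelial genes in every mouse, by group (points: mice; bars: group medians). Krt7 and Krt19 sit higher in the 3 cured mice and anti-PD1 mouse 5 than in all others, with Krt19 between 0.51 and 1.15 there.

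Markers of mesothelium, which also makes these keratins, were present in the cured mice. All 8 genes of that list had over 10 counts in every cured mouse, and their summed level was 64.4 to 221 CPM there, 175 CPM in anti-PD1 mouse 5 and 180 to 543 CPM in untreated mice at 5wk. Upk3b, a mesothelial uroplakin, was at 44.0 ± 25.5 CPM (SD, n = 3) in cured and 45.7 ± 13.3 CPM (n = 5) in untreated mice at 5wk. Msln (mesothelin, which many carcinomas make too) was at 23.5 ± 15.2 CPM in cured and 250 ± 94.6 CPM in untreated mice. Of the 8 genes, Msln (log2 fold change -3.39), Upk1b (-1.24) and Wt1 (-2.30) were called lower by edgeR in cured mice, Gpm6a (1.07) was called higher and 4 were not called. These 3 of 8 lower and 1 of 8 higher were close to the shares of all genes, 26.7% lower and 18% higher. Squamous keratins summed to 4.07 to 11.6 CPM in the cured mice, and liver markers to 0.339 to 0.973 CPM. The part of mesothelium or other residual cells in the keratin counts of the cured mice was not tested.

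RNA of most genes for proteins that bind keratin filaments or anchor them at desmosomes was lower in cured mice. Of 14 filament partners, 10 were called lower and 2 higher by edgeR against untreated mice at 5wk, with a median log2 fold change of -3.02 against -0.05 over all 15816 genes tested, of which 26.7% were called lower and 18% higher. The lowest were the desmosomal cadherins Dsg2 (-6.39 ± 0.67 SE, edgeR adjusted p = 0.000182) and Dsc2 (-6.28 ± 0.57, edgeR adjusted p = 0.000133) and the desmosomal plaque protein Dsp (-5.89 ± 0.80, edgeR adjusted p = 0.000514). Pkp3 (-4.49), Fam83h (-3.90), Evpl (-3.58), Sfn (-3.14), Eppk1 (-2.91), Pkp2 (-2.002) and Ppl (-0.85) were also called lower. The cytolinkers Plec (1.10) and Dst (1.205), which muscle also makes, were called higher. Jup (log2 fold change -0.40), the desmosomal plakoglobin, and Tchp (-0.14) were not called. In uncured against cured mice, 11 of the 14 were called higher (36.9% of all genes) and 2 lower (33.1%).

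Of 15 epithelial transcription factors tested, 12 were called lower and 1 higher in cured mice against untreated mice at 5wk, with a median log2 fold change of -4.84, against 26.7% of all genes lower and 18% higher. Hnf4a (-9.17 ± 0.71 SE, edgeR adjusted p = 0.000108), Cdx2 (-7.71 ± 0.81, edgeR adjusted p = 0.000182) and Ehf (-7.14 ± 0.56, edgeR adjusted p = 0.000108) had the largest falls of the list, and Ovol1 (1.04 ± 0.30, edgeR adjusted p = 0.0199) was the one called higher. Of the 15 epithelial genes that are no keratins, 14 were called lower (median -6.12), and of 9 squamous keratins tested 8 were called lower (median -6.01). Of 6 gastric surface and neck genes tested, 5 were called lower (median -5.95). The share of lower calls in each of these lists was above that of all genes. Of 10 interferon and JAK-STAT targets, 4 were called lower (Socs3 at -1.39, Gbp2 at -1.10, Irf1 at -1.09 and Socs1 at -0.80 on the log2 scale) and 1, Ifit3, higher (1.10), which is near the shares of all genes. In the monotherapies, in all 5 dual ICI mice, in uncured mice against untreated mice and in the interaction, no gene of these lists was called. In each of these comparisons 0% of all genes were called, so this is no result about the lists.

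Across the 26 libraries outside the cured group, the 6 keratins ran together. Spearman's rho of log2 CPM over the 15 pairs of keratins was between 0.831 and 0.984 with a median of 0.925, and between 0.810 and 0.982 over 25 libraries without anti-PD1 mouse 5. All libraries share differences in depth and tissue content, so these values are a description. The genes other than keratins most like Krt7 were Bok (0.957), Polr2h (0.953) and Rhno1 (0.953), and those most like Krt8 were Mapk11 (0.958), Cib1 (0.957) and Rhno1 (0.955). For Krt18 they were the tight junction gene Cldn4 (0.967), Dtnb (0.960) and Pkp3 (0.956), and for Krt19 Cib1 (0.982), Spire2 (0.967) and Rhno1 (0.962). For Krt20 they were Tm4sf4 (0.967), Akr1b8 (0.964) and Ppap2c (0.951), and for Krt23 Epha1 (0.948), Mgat4a (0.946) and Igsf5 (0.942). These values include anti-PD1 mouse 5, and over the 25 libraries without it the rho of the same 18 pairs lay between 0.935 and 0.980. The rho of the keratins with Epcam, the epithelial adhesion molecule, was between 0.885 and 0.906, with Acta1, skeletal muscle actin, between -0.876 and -0.774, and with Upk3b between -0.380 and -0.265, all over the 26 libraries.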

How the data were processed

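RNA-seq counts of 29 mice were used. Raw, unnormalized counts by gene symbol were deposited. To make them, the authors aligned 150 bp reads to mm10 and counted them per gene, with STAR 2.7.0f and featureCounts 1.6.4 in the submitters' processing notes but STAR 2.5.2b and HTSeq 0.6.1 in the supplementary methods. The annotation and strand setting are not given in the sources used here. Library totals were between 25989217 and 31219650 counts. Of 24421 symbols, 23376 were matched to GENCODE vM21 on GRCm38, and 0 rows lacked a gene name. Replicate libraries came from separate mice and differed beyond sampling noise.

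Fold changes, SE and two-sided p-values came from quasi-likelihood fits (glmQLFit, glmQLFTest) after TMM and filterByExpr, in edgeR 4.0.16 under R 4.3.3. Only the groups compared entered a fit, with Benjamini-Hochberg adjustment over all genes and a threshold of 0.05. CPM use TMM-scaled sizes over all 29 libraries, and log2 CPM a prior count of 2. The test was tested on simulated data: of 200 genes changed 4-fold it recovered 199 in dual ICI against untreated mice at 3wk (18 false calls among 15544 genes), 200 in uncured against untreated mice (7 among 16027) and 198 in uncured against cured mice (9 among 15627). The simulated counts had a fixed dispersion of 0.05, and genes of low counts were not changed. Krt8 varied more than that, with an SD of 38.7% of the mean in untreated mice at 5wk and 105% in cured mice. The recovery therefore does not carry over to the keratins and gives no measure of the power of their tests.

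The keratins, the lists and the rule for named genes were chosen with earlier results of these data known. The rule named the 6 keratins, the 5 highest other keratins by mean CPM, list members as counts with most of those called, and for each keratin the 3 genes with the highest Spearman's rho over 26 libraries. The alternatives were DESeq2 1.42.0, upper-quartile normalization, no filter, 1 fit of all 29 libraries, each mouse left out, the replicate number as a block, the epithelial list as a covariate, CPM on raw totals and Cdh1 with Epcam in place of the epithelial list. The covariate was the mean log2 CPM of the 15 epithelial genes. Same-numbered mice were not paired by the labels, and the correlations of their deviations lay between -0.647 and 0.640 in 26 pairs, 9 of them over 0.1. Tables were handled with pandas 2.3.3 and numpy 2.4.6, and figures drawn with matplotlib 3.10.9.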

Additional observations from a re-analysis of the deposited data

Results flagged for a closer look

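Anti-PD1 mouse 5 stood apart from the other 4 mice of its group for every keratin, with a gap to the nearest mouse that was large for a group of this size on the log2 scale. It had 10.9 CPM of Krt7 (others 143 to 196), 12.7 of Krt8 (1014 to 1324), 7.43 of Krt18 (283 to 385), 28.8 of Krt19 (830 to 1051), 1.29 of Krt20 (68.2 to 125.0) and 0.155 of Krt23 (7.06 to 14.7). The same mouse stood apart in the ratios of levels per kb: 2.81 for Krt19 over Krt8 (others 0.985 to 1.08), 1.25 for Krt8 over Krt18 (2.37 to 2.63), 0.410 for Krt7 over Krt8 (0.0625 to 0.0720) and 0.378 for type II over type I (0.680 to 0.721). Untreated mouse 2 at 5wk stood apart for Krt20 with 21.9 CPM, the others being at 61.3 to 85.1 CPM. Untreated mouse 2 at 3wk stood apart for Krt23 with 3.02 CPM, against 5.97 to 6.74 CPM in the others. Chance alone flags about 1 in 20 groups. Here 12 of the 55 sets of values tested were flagged, 10 of them by the 1 mouse, and the keratins are not independent of each other.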

How the results depend on the processing

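The fall of all 6 keratins in cured mice, against untreated or uncured mice, was called under every alternative run. No keratin was called under any alternative in dual ICI against untreated mice at 3wk, in either monotherapy, in uncured against untreated mice at 5wk or in the interaction. For untreated mice at 5wk against 3wk, DESeq2 called 4 and the count was 0 to 6 with single mice left out. For all 5 dual ICI mice, the fit of 29 libraries, which splits them by outcome, called 6. For uncured mice at 5wk against dual ICI mice at 3wk, DESeq2 called 2, the fit of 29 libraries 0, the covariate fit 0, and the count was 0 to 6 with single mice left out. Where 1 uncured mouse was left out, the other was assumed to vary like the other group. The cause of these shifts was not tested. Apart from the fit of 29 libraries for all 5 dual ICI mice, the shares of all genes called under the alternatives are not given here.

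With the replicate number as a block, 5 keratins were called for untreated mice at 5wk against 3wk and 6 for uncured mice against dual ICI mice at 3wk, and the log2 fold changes under anti-PD1 turned for Krt8 (-0.34) and Krt20 (-0.0676). Only mice whose number occurs in every group compared entered these fits. For uncured mice against dual ICI mice at 3wk these were mice 1 and 5 of each group, so the count of 6 rests on these mice alone. The numbers do not pair the mice. For most dual ICI mice at 3wk the column names of the count table carry other numbers than the sample labels, whose numbers are used here. No block could be used for uncured against cured mice, which share no number, and the covariate was not run for the comparisons with cured mice.

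None of the log2 fold changes that changed sign was called. With the epithelial list as a covariate these were Krt23 at -0.11 between the untreated groups, Krt7 0.27 and Krt19 0.13 under anti-PD1, Krt7 -0.0092 and Krt19 -0.11 under anti-CTLA4, Krt7 0.27 and Krt23 0.35 in all 5 dual ICI mice, Krt18 -0.0711, Krt19 -0.0503 and Krt20 -0.0146 in uncured against untreated mice, Krt8 -0.19, Krt18 -0.19, Krt20 -0.30 and Krt23 -0.52 in uncured mice against 3wk, and Krt7 -0.0362, Krt8 -0.11, Krt18 -0.27, Krt20 -0.32 and Krt23 -0.0782 in the interaction. Krt7 under anti-PD1 was 0.0025 with DESeq2 and 0.002 without a filter. With single mice left out, the ranges that crossed 0 were, in dual ICI against untreated mice at 3wk, Krt8 -0.0093 to 0.47, Krt18 -0.0752 to 0.40, Krt19 -0.27 to 0.12, Krt20 -0.20 to 0.60 and Krt23 -0.0877 to 0.64, under anti-PD1 Krt7 -0.19 to 0.29, Krt8 -0.18 to 0.33, Krt18 -0.49 to 0.0042 and Krt19 -0.33 to 0.17, under anti-CTLA4 Krt7 -0.0753 to 0.25, Krt18 -0.26 to 0.15 and Krt19 -0.17 to 0.24, and in the interaction Krt18 -0.10 to 0.38, Krt20 -0.19 to 0.67 and Krt23 -0.0016 to 0.77. Against Cdh1 and Epcam alone, the log2 ratios of cured over untreated mice at 5wk were 2.99 for Krt7, -0.0814 for Krt8, 1.14 for Krt18, 1.92 for Krt19, -0.37 for Krt20 and 2.66 for Krt23, in place of 2.51, -0.56, 0.66, 1.44, -0.85 and 2.18. With CPM on raw totals, 37 means of a keratin in a group stayed within their SD and 5 did not. In uncured mice these were Krt8 (1605 in place of 1323 CPM), Krt18 (487 in place of 401), Krt19 (1258 in place of 1037) and Krt23 (22.5 in place of 18.6). The other was Krt23 in cured mice (0.343 in place of 0.479 CPM). Depth limits Krt20 and Krt23 in cured mice, at 2 to 21 counts a library.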
